A study of Rattus norvegicus with 69 samples.

Results

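The genes described here are 35 genes of glutathione and NRF2 antioxidant defence in rat liver, chosen by their symbols from a list of glutathione transferases, glutathione synthesis and reduction genes, peroxidases, the thioredoxin system, superoxide dismutases, catalase and the targets and regulators of NRF2. All 35 symbols were found in the deposited count table, which lists 38079 symbols in 38513 rows. Gstm3 stood in 2 rows with different gene identifiers, so the members filled 36 rows. All 36 rows passed the filter on low counts, as did 16676 rows in all.

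Liver RNA of 69 male Wistar rats was sequenced after poly(A) selection, in batches that the labels name A (41 libraries) and B (28 libraries). Per the methods of the study, adult rats were made obese on a high-fat diet and then underwent Roux-en-Y gastric bypass (RYGB, n = 14) or sham surgery (sham, n = 12), or received the GLP-1 analogue liraglutide with PYY3-36 (liraglutide+PYY3-36, n = 11), only PYY3-36 (n = 5), only liraglutide (n = 5) or just saline (n = 8). PYY3-36 was given by osmotic minipump and liraglutide under the skin, and rats on a single drug and saline controls received saline by the other route or by both. All of these rats could choose between a high-fat and a low-fat diet during the observation period. A BWM group (n = 8) and a Lean group (n = 6) are also labelled, whose diet and treatment the sources used here do not describe, so they are called by their labels. BWM and Lean were sequenced in batch A only, and PYY3-36 and liraglutide alone in batch B only. The other 4 groups had libraries in both batches, namely 11 and 3 for RYGB, 7 and 5 for sham, 6 and 5 for liraglutide+PYY3-36, and 3 and 5 for saline.

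Glutathione is made in the cytosol from glutamate, cysteine and glycine, and the liver is its main source for the body. Glutathione peroxidases use it to reduce peroxides, and glutathione transferases attach it to reactive compounds so that they can be exported. The transcription factor NRF2, encoded by Nfe2l2, is held back and degraded through its sensor KEAP1, and oxidants or electrophiles that modify KEAP1 let NRF2 switch on genes that carry an antioxidant response element in their regulatory DNA.

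The core of that element is TGACNNNGC, and it was searched on both strands from 250 bases before to 50 bases after the start of each gene in the RefSeq promoters of build GRCr8. Promoters of 28 of the 36 rows were in the table, and 7 of them (25.0%) held the core, against 12.06% of all 33469 promoters of the same length. The core stood before the start in Prdx1, Gstz1, Gclm, Sod2, Gstp1 and Gsta3, and 38 bases after it in Nfe2l2. Mgst2, Prdx6, Gstt2, Gstt1, Gsr, Hmox1, Sod3 and the other Gstm3 row had no entry. The stretches around the core are printed, with the core in capitals, for the transferases Gstp1 and Gsta3, which are among the members with the larger differences between groups, for the glutathione synthesis gene Gclm and for the peroxiredoxin Prdx1. A match of these letters is a description and not a binding site.
Gstp1, chr1:210769718-210769806, minus strand: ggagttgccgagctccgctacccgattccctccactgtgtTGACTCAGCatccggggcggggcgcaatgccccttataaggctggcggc
Gsta3, chr9:31154932-31154988, plus strand: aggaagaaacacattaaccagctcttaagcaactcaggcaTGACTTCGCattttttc
Gclm, chr2:213031923-213032011, plus strand, core read on the other strand: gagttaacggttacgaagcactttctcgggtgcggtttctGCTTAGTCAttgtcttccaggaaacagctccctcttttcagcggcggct
Prdx1, chr5:135383731-135383819, plus strand, core read on the other strand: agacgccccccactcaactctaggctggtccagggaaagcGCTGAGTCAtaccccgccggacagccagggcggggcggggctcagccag
In Gstp1 the core began 61 bases before the start, in Gsta3 17, in Gclm 172 and in Prdx1 135.

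Total counts ranged from 9110860 to 27559144 per library (median 21027325), and the 36 rows took 0.939% to 1.76% of the counts (median 1.32%). The 8 hepatocyte markers (Alb, Apoa1, Ttr and others) summed to between 68635 and 455713 CPM (counts relative to the TMM-scaled size of each library) in the libraries of the 8 groups. In batch B, 6 libraries stood apart from the other 63 on the first principal component of all rows tested, which held 36.0% of the variance. These were sham replicate 12, PYY3-36 replicate 5, liraglutide replicate 4 and liraglutide+PYY3-36 replicates 8, 9 and 11, and lay at 112 to 159 on it, against 11.1 to 80.0 for the other batch B libraries. Nearest to the 6 were saline replicate 9 (80.0) and liraglutide replicate 5 (79.4), ahead of RYGB replicate 14 (55.4). Batch A libraries lay at -3.39 or below. In bulk liver, a lower share of a cell type and less RNA of a gene per cell cannot be told apart.

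Among the members, transcripts of detoxification and peroxide removal were the most abundant. Per kb of exon, and as the mean over 69 libraries, the highest was Mgst1, a membrane-bound glutathione transferase of the endoplasmic reticulum and mitochondria, with 3303 CPM per kb. It was followed by Gpx1, the main cytosolic glutathione peroxidase, with 1493, and Sod1, the cytosolic superoxide dismutase, with 1222. Cat, the peroxisomal catalase, had 1177. The lowest were Srxn1, which repairs overoxidised peroxiredoxins, with 4.30 CPM per kb, Nqo1, a quinone reductase used as a marker of NRF2 activity, with 2.95, and the other Gstm3 row with 0.711. The levels of a member also differed in how much they spread between animals. After group and batch were fitted, the SD on the log2 scale was lowest for Keap1 (0.19) and highest for Gstt3 (1.05), a theta-class transferase, and its median over the 36 rows was 0.45, against 0.49 over all rows tested.

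**Figure D1:**
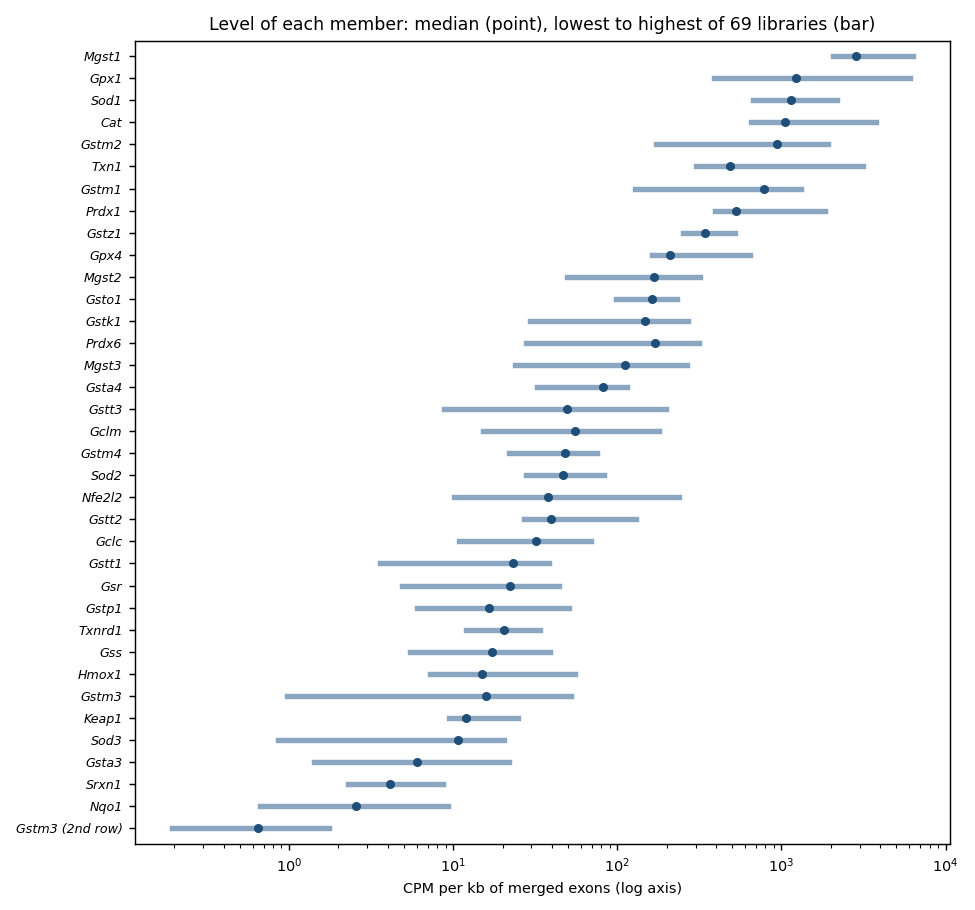
Level of each member as CPM per kb of merged exons on a log axis, ordered by the mean over 69 libraries. Points are medians and bars run from the lowest to the highest library. Mgst1 is at the top, with a mean of 3303 CPM per kb, and Nqo1 (2.95) and the other Gstm3 row (0.711) are at the bottom.

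The question of RYGB versus sham was whether surgery with its weight loss left the antioxidant transcripts of the liver at another level than the operation alone. Mgst1 was lower after RYGB, and no other member passed the test. Mgst1 lies on chromosome 4 (172119382 to 172134609, plus strand, build Rnor_6.0). In RYGB livers it ranged from 1858 to 2452 CPM (median 2078), and in sham livers from 2380 to 4720 CPM (median 2969). The ranges touched at a few libraries, with 13 of 14 RYGB libraries below every sham library and 11 of 12 sham libraries above every RYGB library. In batch A, Mgst1 was 2074 ± 194 CPM in RYGB (SD, n = 11) and 2713 ± 476 CPM in sham (SD, n = 7). In batch B it was 2157 ± 119 CPM in RYGB (SD, n = 3) and 3603 ± 636 CPM in sham (SD, n = 5), and there the groups did not overlap. The fitted level was 0.74 times that of sham (95% interval 0.64 to 0.86), a log2 fold change of -0.44 (SE 0.11, edgeR adjusted p = 0.00811).

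That was 1 of 36 member rows called at an adjusted p under 0.05 (2.78%), beside 3.12% of all rows tested. At an unadjusted p under 0.05 it was 7 of 36 (19.4%), beside 12.7% of all rows. In batch A alone the log2 fold change of Mgst1 was -0.40 (adjusted p = 0.00452) and in batch B alone -0.73 (adjusted p = 0.343), and a fit blocked by replicate number gave an adjusted p of 0.131. Of the 8 hepatocyte markers, 1 fell (Ahsg, by 0.41 on the log2 scale) and 0 rose, and their sum ranged from 68635 to 292897 CPM in RYGB and from 93932 to 217965 CPM in sham. Their part in the Mgst1 difference was not tested.

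**Figure D2:**
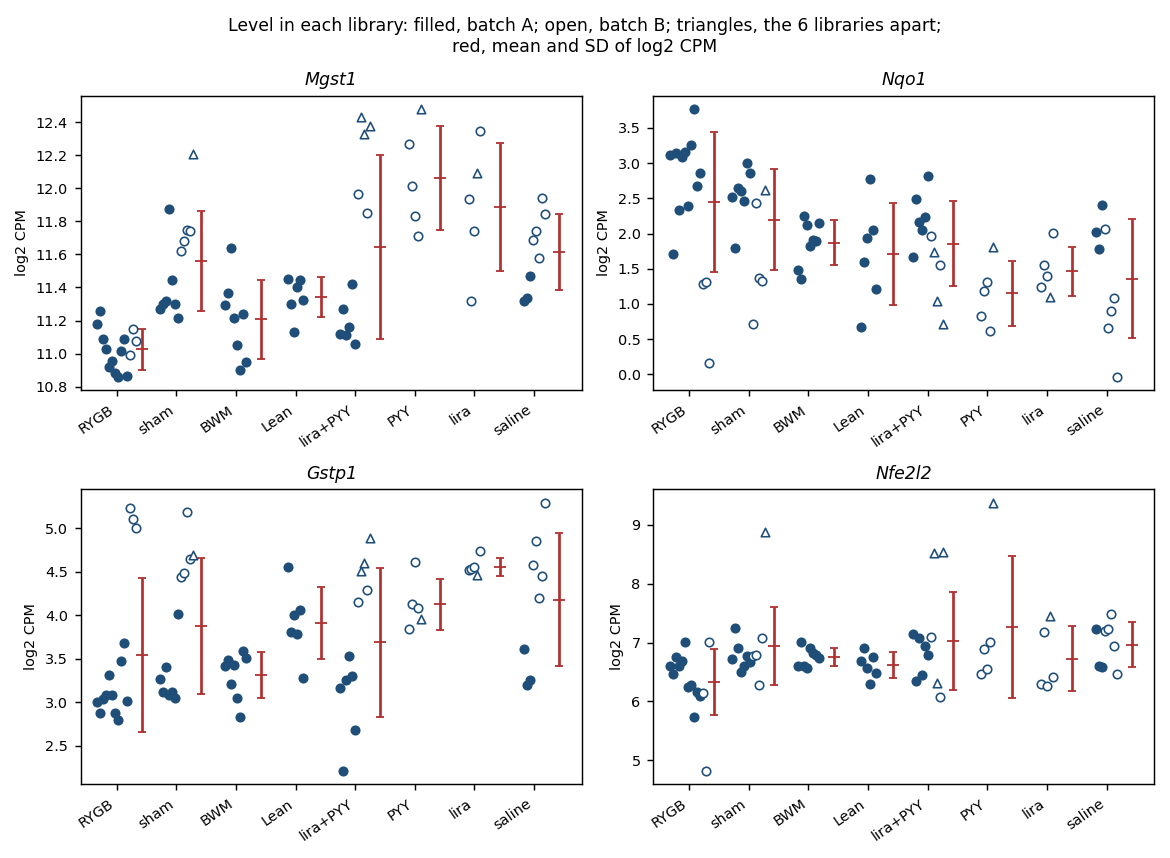
CPM of Mgst1, Nqo1, Gstp1 and Nfe2l2 in each library by group, on log axes. Filled points are batch A, open points are batch B and triangles are the 6 libraries apart, with the mean and SD of log2 CPM in red. RYGB has the lowest Mgst1 median (2078 CPM), while Gstp1 splits by batch in every group that was sequenced in both.

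The other members of RYGB versus sham are given by role. The regulators Nfe2l2 and Keap1 had log2 fold changes of -0.56 (SE 0.26, edgeR adjusted p = 0.334) and -0.06. Without sham replicate 12, a library apart with the highest Nfe2l2 value of its group, Nfe2l2 had -0.32. Of the 4 genes of glutathione synthesis and reduction, 3 had positive values, namely Gclc (0.18) and Gclm (0.38), the catalytic and modifier subunits of the rate-limiting ligase, and Gss (0.37, SE 0.15, edgeR adjusted p = 0.238), which joins glycine in the last step. Gclm had 0.72 without sham replicate 12 and 0.11 without RYGB replicate 14, and without the 6 libraries apart it was called (0.72, edgeR adjusted p = 0.0286). Gsr, the NADPH-dependent reductase that regenerates glutathione, had -0.12.

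The 14 rows of cytosolic and mitochondrial transferases had 5 positive and 9 negative values, from -0.42 (Gstm3) to 0.76 (Gsta3). The other Gstm3 row had 0.64 (SE 0.22, edgeR adjusted p = 0.129). Gsta3, an alpha-class transferase, ranged from 3.97 to 36.6 CPM in RYGB (median 14.2) and from 2.85 to 14.1 CPM in sham (median 9.04), with 7 of 14 RYGB libraries above every sham library. Its log2 fold change was 0.76 (SE 0.25) with an edgeR adjusted p of 0.0812, which missed the threshold. When each library was left out in turn, the adjusted p ran from 0.0384 to 0.178 and was under 0.05 in 4 of 26 fits, those without RYGB replicate 2, 12 or 14 or sham replicate 9. In batch A alone the log2 fold change was 0.75 (adjusted p = 0.0337) and in batch B alone 0.35 (adjusted p = 0.979). Counts of Gsta3 were not whole in 84.1% of libraries, so some reads matched several places or genes, and the table does not say which. Of the pericentral hepatocyte markers 2 of 10 rose (Rhbg 1.06, Cyp1a2 1.14), and their sum ranged from 4427 to 12821 CPM in RYGB and from 2981 to 9067 CPM in sham. For periportal markers, 0 of 9 were called. Whether these zones bear on the transferases was not tested.

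Among the remaining members, Gstz1, the maleylacetoacetate isomerase of tyrosine breakdown, had -0.24 (SE 0.09, edgeR adjusted p = 0.175) and Gpx1 -0.57 (SE 0.28, edgeR adjusted p = 0.378), which was -0.32 without sham replicate 12. The microsomal transferases Mgst2 and Mgst3 had 0.24 and -0.12. The 5 rows of the thioredoxin system lay between -0.20 (Txn1) and 0.07 (Prdx6), and the superoxide dismutases and catalase between -0.15 (Sod1) and 0.19 (Sod3). Nqo1 had 0.09 and Hmox1, the enzyme that opens heme to biliverdin, -0.06. For 31 of 36 rows the 95% interval lay within a 2-fold change in either direction.

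**Figure D3:**
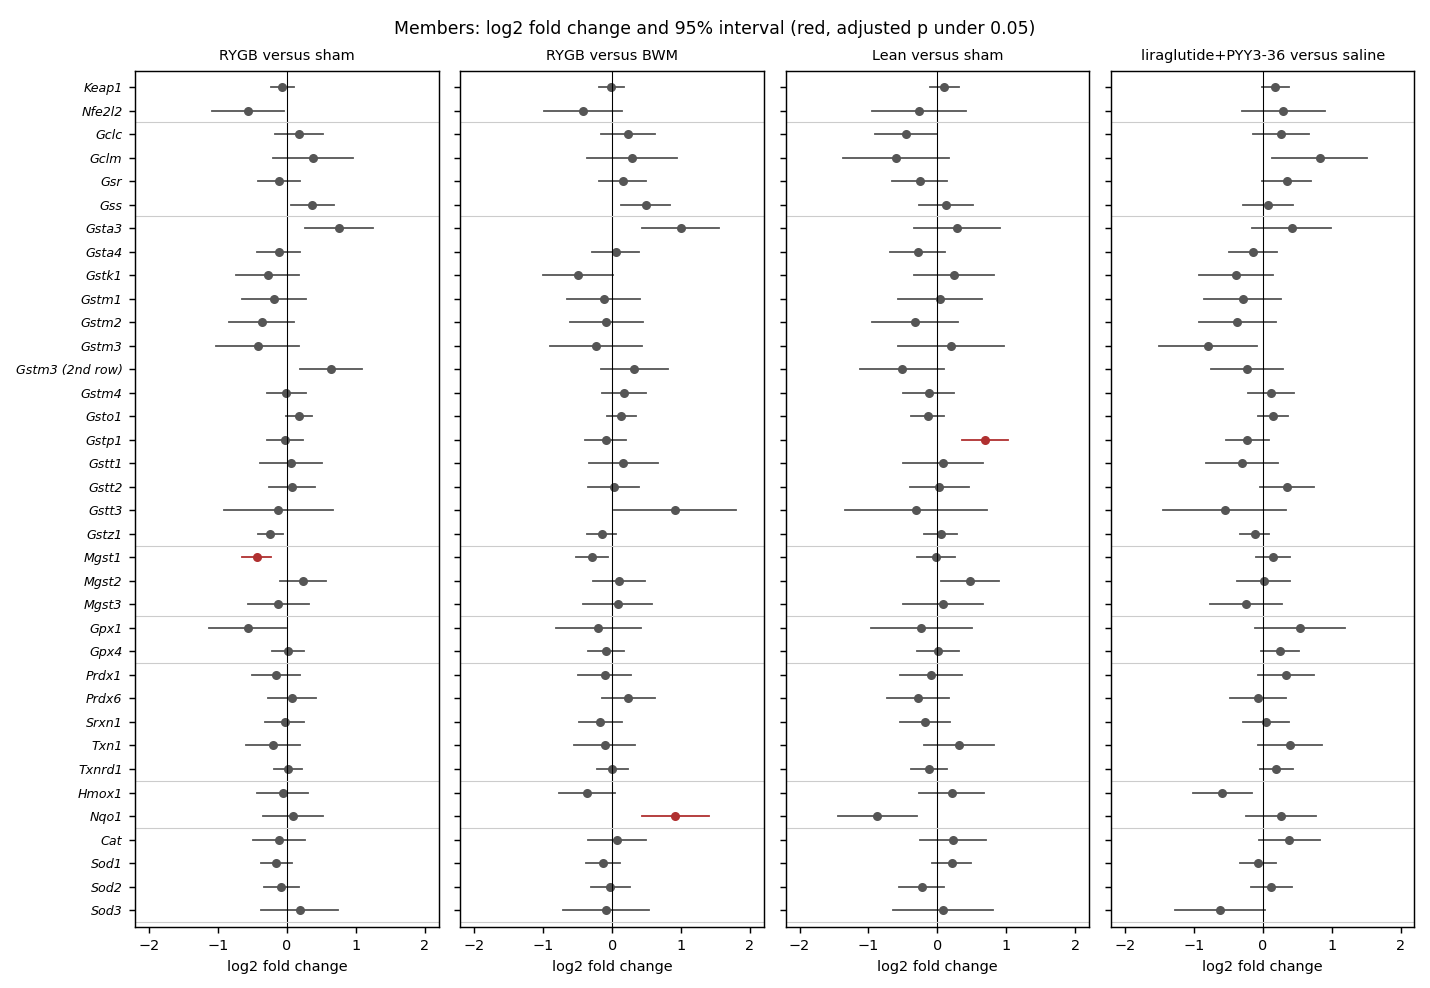
Log2 fold change of each member with its 95% interval in RYGB versus sham, RYGB versus BWM, Lean versus sham and liraglutide+PYY3-36 versus saline, grouped by role. Red marks an adjusted p under 0.05, which holds for Mgst1 (-0.44), Nqo1 (0.92) and Gstp1 (0.70) in turn, and for no member in the fourth panel.

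Of the wider redox genes listed beside the members, 83 of 84 symbols were in the table and 78 rows were tested. The list was drawn up with earlier results of these data known, so its shares of calls are a description and not a test. In RYGB versus sham 7 of these rows were called (8.97%), beside 3.12% of all rows. Of them 4 rose, namely Glrx, a glutaredoxin that removes glutathione from proteins (log2 fold change 0.74, SE 0.13), Abcc3, a basolateral exporter of conjugates (0.86), Oplah, which returns 5-oxoproline to glutamate (0.66), and Txnrd2, the mitochondrial thioredoxin reductase (0.39). From that list 3 genes fell, namely Chac1, which degrades glutathione (-2.61, SE 0.58), Ephx1, the microsomal epoxide hydrolase (-0.94), and Idh1, an NADPH-forming dehydrogenase (-0.43). Of the 78 rows, 39 had positive values.

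RYGB was also compared with BWM, which was sequenced in batch A only. Nqo1 was higher in RYGB than in BWM, and it was the member that passed the test. Nqo1 lies on chromosome 19 (38422210 to 38437103, plus strand, Rnor_6.0). It ranged from 1.12 to 13.6 CPM in RYGB (median 6.83) and from 2.55 to 4.75 CPM in BWM (median 3.73). Of the RYGB libraries, 10 of 14 were above every BWM library and 3, all of batch B, were below every BWM library. In batch A the level was 7.76 ± 2.79 CPM in RYGB (SD, n = 11) and 3.73 ± 0.779 CPM in BWM (SD, n = 8). The fitted level was 1.89 times that of BWM (95% interval 1.35 to 2.64), a log2 fold change of 0.92 (SE 0.24, edgeR adjusted p = 0.0338).

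That was 1 of 36 rows (2.78%), beside 1.27% of all rows tested, and at an unadjusted p under 0.05 it was 5 of 36 (13.9%), beside 7.91%. In batch A alone the log2 fold change of Nqo1 was 1.05 (adjusted p = 0.00274). The call was lost (adjusted p from 0.0545 to 0.101) when any of BWM replicates 1, 2, 5, 6 and 7 or RYGB replicates 3, 5, 6, 8 and 9 was left out, with log2 fold changes of 0.80 to 0.92. The lowest count of Nqo1 in a library was 15, so its counting error is larger than that of the other NRF2 targets.

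Gsta3 had 0.99 (SE 0.28, edgeR adjusted p = 0.0543) in RYGB versus BWM, with 11 of 14 RYGB libraries above every BWM library, and in batch A alone 1.12 (adjusted p = 0.0012). All 4 genes of glutathione synthesis and reduction had positive values, from 0.15 (Gsr) to 0.49 (Gss, SE 0.18, edgeR adjusted p = 0.238). Gss ranged from 22.6 to 73.4 CPM in RYGB and from 24.6 to 32.9 CPM in BWM. Mgst1 had -0.29 (SE 0.12, edgeR adjusted p = 0.37) and Gstt3 0.91 (SE 0.44, edgeR adjusted p = 0.597). Levels of Mgst1 in BWM ranged from 1909 to 3186 CPM (median 2397) and overlapped those of RYGB and of sham. Nfe2l2 (-0.43) and Hmox1 (-0.36) had negative values, and for 32 of 36 rows the interval lay within a 2-fold change. Of the 78 wider rows, a list drawn up with earlier results known, 4 were called (5.13%), beside 1.27% of all rows. Of these, Glrx (0.65) and Mt2A, a metallothionein (1.92), rose, and Chac1 (-2.78) and Csad, of taurine synthesis (-1.28), fell.

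BWM and Lean were compared with sham, and these comparisons and RYGB versus sham share the 12 sham libraries. In BWM versus sham, 0 of 36 rows were called by edgeR, by DESeq2 or by limma-voom, beside 0.042% of all rows in edgeR. At an unadjusted p under 0.05 it was 2 of 36 (5.56%), beside 3.18%, namely Nqo1 (log2 fold change -0.83, SE 0.26, edgeR adjusted p = 0.63) and Gstt3 (-1.04, SE 0.48, edgeR adjusted p = 0.9999). Sham livers of batch A held 3.46 to 7.97 CPM of Nqo1 and BWM livers 2.55 to 4.75 CPM, so the groups overlapped.

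In Lean versus sham, Gstp1 was higher in Lean. Gstp1 is the pi-class transferase, known in rat liver for its low level in hepatocytes and its presence in bile duct cells and early lesions. The gene lies on chromosome 1 (219291679 to 219294147, minus strand, Rnor_6.0). Its counts were not whole in 58.0% of libraries, so some reads matched several places or genes. Gstp1 ranged from 9.69 to 23.4 CPM in Lean (median 15.0) and, in batch A, from 8.28 to 16.1 CPM in sham (median 8.68). Of 7 batch A sham libraries, 5 were below every Lean library, and 2 of 6 Lean libraries were above every batch A sham library. The fitted level was 1.62 times that of sham (95% interval 1.28 to 2.04), a log2 fold change of 0.70 (SE 0.17, edgeR adjusted p = 0.0234).

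This was 1 of 36 rows (2.78%), beside 0.612% of all rows tested, and at an unadjusted p under 0.05 it was 4 of 36 (11.1%), beside 6.07%. In batch A alone Gstp1 had 0.61 (adjusted p = 0.121), and the adjusted p was 0.304, 0.0635 and 0.0574 without Lean replicate 1, 3 or 5. Without the batch term its log2 fold change was -0.11, since sham has batch B libraries and Lean has none. Of 6 bile duct markers tested 0 were called, and their sum ranged from 13.6 to 22.9 CPM in Lean and from 10.9 to 28.2 CPM in sham. The part of bile duct cells in the Gstp1 difference was not tested.

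The other values of Lean versus sham with an unadjusted p under 0.05 were Mgst2 (0.47, SE 0.21, edgeR adjusted p = 0.701), Nqo1 (-0.87, SE 0.29, edgeR adjusted p = 0.254) and Gclc (-0.46, SE 0.23, edgeR adjusted p = 0.816). Gclm had -0.60. Nqo1 ranged from 1.598 to 6.84 CPM in Lean, over most of the sham range. The calls were 3.85% of the wider rows, a list drawn up with earlier results known, beside 0.612% of all rows. From that list, Pgd (1.06), of the pentose phosphate pathway, and Me1 (1.63), the malic enzyme, rose in Lean, and both make cytosolic NADPH. NADPH is what glutathione and thioredoxin reductases use. Intervals lay within a 2-fold change for 33 of 36 rows in BWM and 31 of 36 in Lean. Over the 36 rows, the median log2 fold change in the 9 comparisons ran from -0.08 to 0.12, beside -0.02 to 0.04 over all rows tested.

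The drug comparisons asked whether liraglutide, PYY3-36 or both changed these transcripts against saline, and all 3 share the 8 saline libraries. No member passed the test in any of them. In liraglutide+PYY3-36 versus saline 0 of 36 rows were called by edgeR, DESeq2 or limma-voom, beside 0.006% of all rows in edgeR, and 3 of 36 (8.33%) had an unadjusted p under 0.05, beside 10.9%. These were Gclm (log2 fold change 0.83, SE 0.34), Hmox1 (-0.59, SE 0.21) and Gstm3 (-0.80, SE 0.36), each with an edgeR adjusted p of 0.454. Without saline replicate 5, Hmox1 had -0.29 and Gstm3 -0.36. Hmox1 ranged from 17.5 to 41.0 CPM under the combination (median 22.5) and from 19.9 to 85.6 CPM under saline (median 31.1). Kupffer cell markers, whose cells clear heme through Hmox1, were called in 0 of 12 cases, with 11 of 12 negative and a sum of 241 to 453 CPM against 275 to 744 CPM in saline. Their part in the Hmox1 values was not tested.

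All 4 genes of glutathione synthesis and reduction had positive values under the combination, from 0.08 (Gss) to 0.83 (Gclm), and 10 of 14 cytosolic and mitochondrial transferases had negative ones. The combination held 3 of the 6 libraries apart and saline 0, although saline replicate 9 lay nearest to them on the first principal component. Without the 6 the negative transferases were 6 of 14, while Gclm had 0.34. In batch A, Gclm ranged from 73.6 to 123 CPM under the combination and from 71.3 to 106.4 CPM under saline. In batch B it ranged from 49.6 to 230.0 CPM and from 32.3 to 52.6 CPM. The highest Gclm value of the group was that of replicate 11, a library apart. Mgst1 had 0.14 and ranged from 2129 to 2739 CPM in batch A and from 3686 to 5517 CPM in batch B, without overlap between the batches. Txn1 (0.40), Gpx1 (0.54) and Cat (0.39) had positive values too, which were -0.17, -0.09 and 0.03 without the 6 libraries. For 30 of 36 rows the interval lay within a 2-fold change. The blood markers, listed for Cat, Prdx1 and Sod1, whose proteins red cells hold, were called in 0 of 7 cases and were positive in 7 of 7. They summed to 161 to 2554 CPM, against 246 to 914 CPM in saline. The fitted level of Prdx1 was 1.27 times that of saline and that of Sod1 0.95 times. The part of blood in these values was not tested.

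PYY3-36 alone gave 0 of 36 calls by edgeR, DESeq2 or limma-voom, as it gave 0% of all rows in edgeR. At an unadjusted p under 0.05 it was 6 of 36 (16.7%), beside 4.95%. Negative values were those of Gstp1 (-0.65, SE 0.20) and Hmox1 (-0.80, SE 0.27), and positive ones those of Gstt2 (0.54), Gclc (0.53), Gsta4 (0.43) and Gsto1 (0.28), with edgeR adjusted p-values of 0.937 to 0.947. Without PYY3-36 replicate 5, a library apart, Gclc had 0.06 and Gstt2 0.11, and without saline replicate 5 Hmox1 had -0.45. Gstp1 was 14.3, 17.5, 24.4, 17.0 and 15.5 CPM in the 5 PYY3-36 livers and 18.3 to 39.2 CPM in the 5 saline livers of batch B, so the groups overlapped. Intervals lay within a 2-fold change for 24 of 36 rows only, the fewest of the drug comparisons.

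Liraglutide alone also gave 0 of 36 calls by edgeR, DESeq2 or limma-voom, beside 0.006% of all rows, and 1 of 36 (2.78%) at an unadjusted p under 0.05, beside 6.22%. That row was Gsto1, an omega-class transferase that reduces dehydroascorbate, with 0.32 (SE 0.14, edgeR adjusted p = 0.704). It had 0.28 in PYY3-36 and 0.15 in the combination. Mgst1 was 3917, 2548, 3424, 4371 and 5216 CPM in the 5 liraglutide livers, against 3062 to 3928 CPM in saline of batch B, and 4922, 4138, 3651, 3351 and 5709 CPM in the 5 PYY3-36 livers. Nqo1 was 2.36, 2.94, 2.64, 2.15 and 4.03 CPM under liraglutide and 1.77, 2.28, 2.48, 1.53 and 3.51 CPM under PYY3-36. These values lay within the saline range of 0.976 to 5.32 CPM, which is over both batches. Both drug groups are of batch B, where Nqo1 was lower (log2 fold change -1.04, batch B versus batch A). For 30 of 36 rows the interval lay within a 2-fold change.

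The controls themselves were compared, since sham rats had the control operation and saline rats received saline by minipump and under the skin. In sham versus saline 0 of 36 rows were called by edgeR, DESeq2 or limma-voom, as were 0% of all rows in edgeR, and 3 of 36 (8.33%) had an unadjusted p under 0.05, beside 2.58%. They were Keap1 (0.23, SE 0.09), Nqo1 (0.60, SE 0.25) and Hmox1 (-0.69, SE 0.21), each with an edgeR adjusted p of 0.9999. Without saline replicate 5 Hmox1 had -0.40. Hmox1 in saline livers included the value of replicate 5, 85.6 CPM, the highest of all 69 libraries. The Hmox1 values of the combination, PYY3-36 and sham against saline all rest on the same 8 saline libraries.

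The difference between the effect of RYGB (against sham) and that of liraglutide+PYY3-36 (against saline) was tested within the same model. Here 0 of 36 rows were called by edgeR, DESeq2 or limma-voom, beside 0.036% of all rows in edgeR, and 4 of 36 (11.1%) had an unadjusted p under 0.05, beside 12.3%. Mgst1 had the lowest p, with a difference of -0.58 on the log2 scale (SE 0.16, edgeR adjusted p = 0.208). Gpx1 had -1.11 (SE 0.43), Nfe2l2 -0.86 (SE 0.40) and the other Gstm3 row 0.86 (SE 0.34), with edgeR adjusted p-values of 0.366 to 0.396. Without the 6 libraries apart the differences were -0.31 for Mgst1, -0.26 for Gpx1 and -0.13 for Nfe2l2. The interval lay within a 2-fold difference for 23 of 36 rows. The call of Mgst1 after RYGB and its absence under the combination is therefore not a shown difference between the treatments.

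Nfe2l2 and Keap1 were called by edgeR in none of the 9 comparisons between groups, although limma-voom called Nfe2l2 lower in RYGB versus sham. Medians of Nfe2l2 ran from 83.1 CPM in RYGB (range 28.3 to 129) to 135 CPM in saline (88.3 to 179). They were 109.5 CPM in sham (77.9 to 472), 109 CPM in BWM (94.7 to 128), 99.2 CPM in Lean (78.7 to 119.7), 122 CPM under liraglutide+PYY3-36 (67.3 to 371), 119 CPM under PYY3-36 (88.3 to 664) and 85.4 CPM under liraglutide (76.9 to 175). The highest values of sham, liraglutide+PYY3-36, PYY3-36 and liraglutide belonged to libraries apart, and the ranges of all groups overlapped. Medians of Keap1 ran from 36.1 CPM in BWM (31.5 to 40.1) to 55.5 CPM under liraglutide (47.9 to 79.7), with 36.3 CPM in RYGB (30.7 to 71.5), 40.1 CPM in sham (32.9 to 80.8), 38.5 CPM in Lean (34.2 to 52.8), 43.1 CPM under liraglutide+PYY3-36 (33.4 to 68.2), 50.2 CPM under PYY3-36 (45.1 to 68.5) and 44.6 CPM in saline (32.7 to 60.1). The groups sequenced in batch B alone had the highest Keap1 medians, and their ranges lay above that of BWM, which is of batch A alone.

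The usual targets of NRF2 had their highest medians in different groups. Gclc had medians of 107 CPM in RYGB (range 44.3 to 211), 102 CPM in sham (37.5 to 132), 109 CPM in BWM (83.1 to 133), 85.2 CPM in Lean (61.1 to 97.1), 97.6 CPM under liraglutide+PYY3-36 (39.9 to 158), 53.3 CPM under PYY3-36 (46.7 to 167), 43.0 CPM under liraglutide (33.1 to 86.9) and 57.3 CPM in saline (45.8 to 132). The groups of batch B alone were the low ones. Gclm had medians of 113 CPM in RYGB (36.7 to 254), 79.7 CPM in sham (23.3 to 269), 107 CPM in BWM (68.1 to 125), 66.1 CPM in Lean (30.2 to 87.5), 99.98 CPM under liraglutide+PYY3-36 (49.6 to 230.0), 51.7 CPM under PYY3-36 (37.5 to 207), 45.3 CPM under liraglutide (22.8 to 95.2) and 48.2 CPM in saline (32.3 to 106.4).

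Txnrd1, the selenoprotein that reduces thioredoxin, was steadier, with medians of 72.5 CPM in RYGB (41.2 to 84.7), 66.1 CPM in sham (50.3 to 87.7), 72.6 CPM in BWM (56.7 to 89.6), 68.7 CPM in Lean (54.99 to 71.2), 75.4 CPM under liraglutide+PYY3-36 (57.4 to 116), 66.3 CPM under PYY3-36 (57.8 to 102), 59.3 CPM under liraglutide (52.4 to 64.4) and 71.7 CPM in saline (53.5 to 84.3). Srxn1 was close to it in steadiness, with medians from 10.3 CPM under liraglutide (9.30 to 16.2) to 13.8 CPM in BWM (9.63 to 17.1), and 12.4 CPM in RYGB (6.596 to 15.7), 10.7 CPM in sham (8.15 to 15.7), 11.1 CPM in Lean (6.80 to 16.2), 13.04 CPM under liraglutide+PYY3-36 (8.11 to 18.7), 11.6 CPM under PYY3-36 (9.06 to 12.996) and 12.2 CPM in saline (7.52 to 24.9). Hmox1 had medians of 22.2 CPM in RYGB (14.1 to 30.8), 20.5 CPM in sham (11.2 to 45.5), 26.4 CPM in BWM (18.8 to 40.3), 28.2 CPM in Lean (18.3 to 32.6), 20.6 CPM under PYY3-36 (11.2 to 27.7) and 23.3 CPM under liraglutide (19.6 to 38.2). In each of these genes the ranges of all groups overlapped.

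Batch was the factor along which most members moved, and its contrast was added after the data were seen. Adjusted for group, 10 of 36 rows were higher and 9 lower in batch B than in batch A, 52.8% together, beside 60.6% of all rows tested, and 55.6% had an unadjusted p under 0.05, beside 64% of all rows. Thioredoxin itself led the higher members. Txn1 ranged from 92.0 to 245 CPM in batch A (median 133) and from 224 to 961 CPM in batch B (median 288), with 26 of 28 batch B libraries above every batch A library (log2 fold change 1.65, SE 0.16, edgeR adjusted p = 4.3e-14). Gstp1 ranged from 4.63 to 23.4 CPM in batch A and from 14.3 to 39.2 CPM in batch B (1.54, SE 0.10, edgeR adjusted p = 3.9e-20).

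Gpx4, which reduces lipid peroxides in membranes, ranged from 185 to 280 CPM in batch A and from 233 to 737 CPM in batch B, with 27 of 28 batch B libraries above every batch A library (0.93). Keap1 (0.68), Prdx1 (0.60), Gpx1 (0.57), Mgst1 (0.50), Nfe2l2 (0.47), Mgst2 (0.38) and Sod1 (0.37) were also higher. Lower in batch B were Prdx6, a peroxiredoxin that uses glutathione (-1.45, SE 0.15), Gsr (-1.16), Nqo1 (-1.04), Gclc (-0.94), Gsta4 (-0.63), Gstm3 (-0.62), Gsta3 (-0.57), Srxn1 (-0.33) and Txnrd1 (-0.19). All 6 libraries apart were in batch B, and without them 12 of 36 rows were higher and 8 lower, beside 63.2% of all rows called. Nfe2l2 (-0.04), Gpx1 (0.00196), Gstm3 (-0.27) and Gsta3 (-0.47) were then not called, Mgst1 had 0.32 and Prdx1 0.23, and Gclm was called lower (-0.80). Prdx6 ranged from 71.0 to 269 CPM in batch A and from 23.9 to 113 CPM in batch B, and 16 of 28 batch B libraries were below every batch A library. Of the wider list 33 rows were higher and 19 lower. Per the methods, a longer feeding period was given to as many combination and saline rats as batch A holds of these groups (6 and 3). The labels do not say which rats these were, so that feeding period and batch cannot be told apart in those groups.

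The 6 libraries apart held the extremes of several members. These libraries were picked on all rows, members included, so the following is a description. How many of all rows had their extremes in these libraries was not counted, so the members are not set apart from other genes by it. Txn1 was 692 to 961 CPM in them and at most 551 CPM in the other 63, so that they held the 6 highest values. For Gpx1 (1557 to 5332 CPM), Prdx1 (1088 to 1633 CPM), Gpx4, Gstt2 and Nfe2l2 (79.4 to 664 CPM), 5 of the 6 highest values were theirs. They held the 6 lowest values of 5 members, namely the mu-class transferases Gstm1 (175 to 417 CPM, against at least 741 CPM in the other 63), Gstm2 (179 to 456 CPM, against at least 575 CPM) and Gstm3 (0.636 to 2.41 CPM), the theta-class Gstt1 (6.25 to 18.6 CPM) and Prdx6 (23.9 to 46.0 CPM).

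Sod3, the extracellular superoxide dismutase, had 5 of its 6 lowest values there, and ranged from 1.62 to 8.83 CPM in the 6 libraries. Nqo1, Gsr, Gstm4 and the other Gstm3 row had none of their 6 highest or lowest values in these libraries. Without the 6 libraries, the value of Mgst1 in RYGB versus sham was -0.43 (adjusted p = 0.00065), and the calls in that comparison were Mgst1, Gclm and Gstz1 (-0.26, adjusted p = 0.0483). In RYGB versus BWM they were Nqo1 (0.93), Gss (0.44, adjusted p = 0.0263) and Gsta3 (0.98, adjusted p = 0.0372). Calls among all rows also moved between fits, so these added calls are not a result particular to the members.

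**Figure D4:**
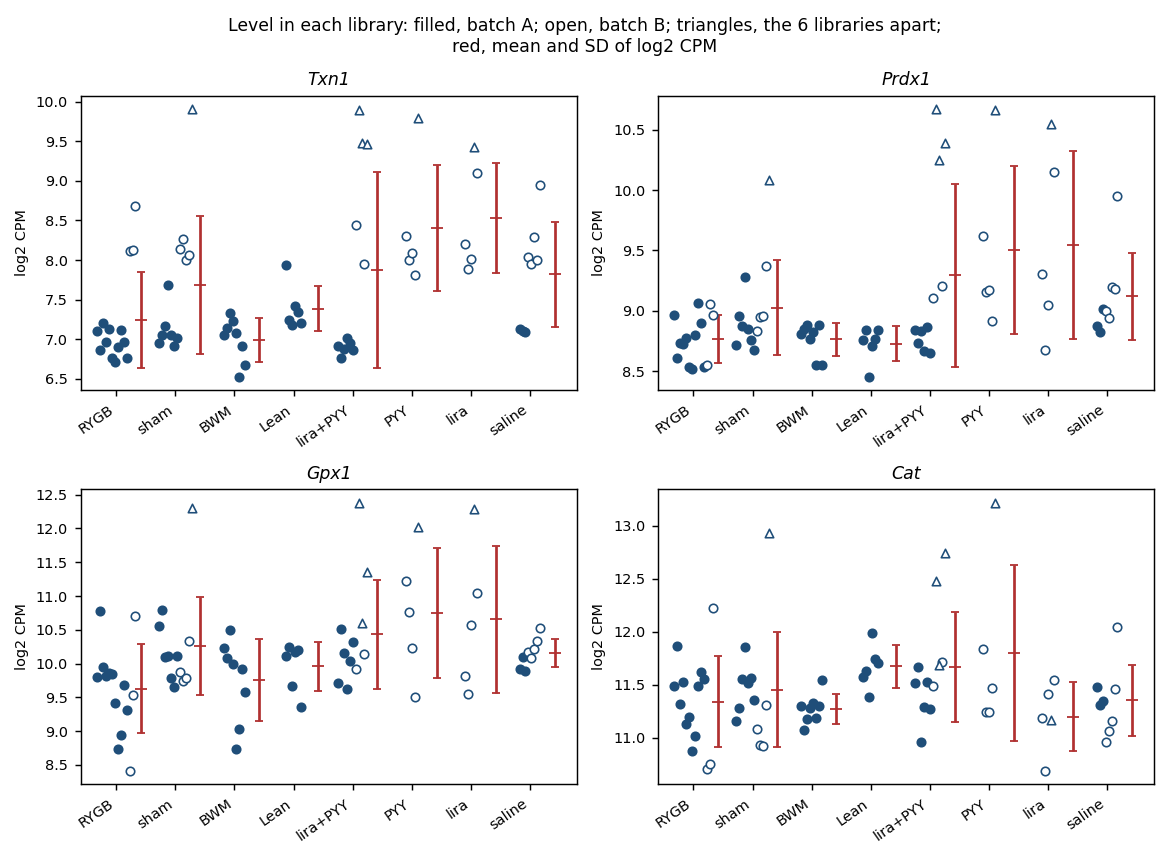
CPM of Txn1, Prdx1, Gpx1 and Cat in each library by group, on log axes. Filled points are batch A, open points are batch B and triangles are the 6 libraries apart, which hold the 6 highest Txn1 values (692 to 961 CPM).

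Whether Nqo1 varied between libraries together with other NRF2 targets was examined over 69 libraries and 8 pairs. Group and batch levels, fitted as separate terms, had been taken out. A batch difference that varied by group stays in these values, also within each batch, so they are not variation between animals alone. Nqo1 and Srxn1 had a Pearson r of 0.493 and a Spearman rho of 0.498, with permutation p-values (two-sided, Benjamini-Hochberg adjusted over the pairs) of 0.00024 and 0.00016. The r was 0.387 in batch A (adjusted permutation p = 0.054) and 0.585 in batch B (adjusted permutation p = 0.0092). It was 0.399 without the 2 libraries farthest from the median of Nqo1 and 0.491 without the 6 libraries apart. Nqo1 and Gsr had an r of 0.384 and a rho of 0.394 (adjusted permutation p = 0.00504 and 0.00364). Their r was 0.553 in batch A (adjusted permutation p = 0.002) and 0.260 in batch B (adjusted permutation p = 0.364). It was 0.427 without the 2 farthest libraries and 0.353 without the 6 libraries apart. The other 6 pairs, with Gclc, Gclm, Txnrd1, Hmox1, Prdx1 and Gstp1, had r between -0.214 and 0.195 and adjusted permutation p-values of 0.161 or more. All of these values share library depth and quality between the genes of a pair.

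**Figure D5:**
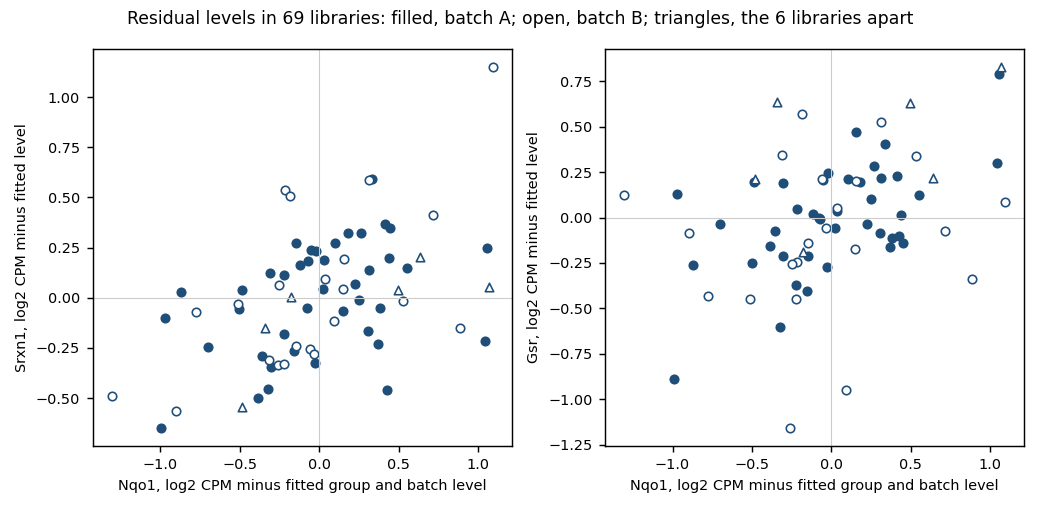
Residual log2 CPM of Srxn1 (left) and Gsr (right) against that of Nqo1 in 69 libraries, after fitted group and batch levels were taken out. Filled points are batch A, open points are batch B and triangles are the 6 libraries apart, and Pearson r is 0.493 on the left and 0.384 on the right.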

How the data were processed

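Livers of the 69 rats were sequenced in single-end mode from stranded poly(A) libraries, each from a different animal. Per the methods and processing notes, the authors called bases with bcl2fastq 2.20.0.422, trimmed reads with cutadapt 2.5, aligned them to Rnor_6.0 with STAR 2.7.2b, and deposited an estimated count per gene and library from featureCounts 1.6.4 (Subread), without normalization. Reads that matched several places or genes were divided between them, by strand, so that 15.9% of values were not whole. Which genes shared reads is not recorded in the table. No column of other samples was present (0 columns).

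Counts were rounded, filtered with filterByExpr and scaled by TMM in edgeR 4.0.16 (R 4.3.3). All libraries entered 1 robust quasi-likelihood fit with the 8 groups and batch as terms, and p-values were adjusted by Benjamini and Hochberg over all 16676 rows. Rows with an adjusted p under 0.05 were called. SE and 95% intervals are on the log2 scale. CPM are relative to library sizes after TMM, and levels per kb are divided by the merged exon length in the table. The edgeR p-values set a difference between groups against the spread between animals.

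The members and lists were chosen with earlier results of these data known. Named with all group values were the members called in any comparison, Nfe2l2, Keap1 and the targets Nqo1, Hmox1, Gclc, Gclm, Txnrd1 and Srxn1. The 3 members highest and lowest per kb were named, and Cat beside them. Wider redox genes called in RYGB versus sham were named, and those called in RYGB versus BWM and Lean versus sham were named after their values were seen, as were Gsta3 and the batch B against batch A contrast, with and without the 6 libraries apart.

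The alternatives were DESeq2 size factors, no low-count filter, unrounded counts, no batch term, the replicate number as a block, only the groups compared, only the 55 libraries of the groups the paper describes, each batch alone, leaving out the 6 libraries apart, RYGB replicate 13 with sham replicate 12, or each library in turn, 2 surrogate variables (sva 3.50.0), limma-voom with quality weights (limma 3.58.1), and DESeq2 1.42.0 with batch and a fold change prior. The edgeR test was tested on simulated data. Correlations over all 69 libraries used 100000 permutations. Some genes of the wider lists are not reported here.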

Additional observations from a re-analysis of the deposited data

Results flagged for a closer look

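Within groups of 5 to 8 libraries, 50 groups of values of 10 members were examined for a library far from the others. The limit marks about 1 in 20 for normal and independent values, which unlogged CPM of the same libraries need not be. Of the 50, 9 were marked. Of these, 4 belonged to PYY3-36 replicate 5, a library apart on the first principal component. It had 664 CPM of Nfe2l2 (the next value of its group was 128), 167 CPM of Gclc (next 80.8), 207 CPM of Gclm (next 70.2) and 102 CPM of Txnrd1 (next 70.3). Liraglutide replicate 4, also apart, had 86.9 CPM of Gclc (next 46.8). Saline replicate 5, which was not among the libraries apart, had 85.6 CPM of Hmox1 (next 40.3) and 24.9 CPM of Srxn1 (next 14.001). Liraglutide replicate 1 had 16.2 CPM of Srxn1 (next 11.01), and Lean replicate 1 had 52.8 CPM of Keap1 (next 39.9). Lean replicate 1 also held the highest Gstp1 value of its group, 23.4 CPM, and the Gstp1 call in Lean versus sham was lost without it (adjusted p = 0.304).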

How the results depend on the processing

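In RYGB versus sham the number of members called was 1 in the main model, 2 without the batch term, in batch A alone and with DESeq2, 0 in batch B alone, 3 without the 6 libraries apart, 5 with surrogate variables, 6 with limma-voom and 1 or 2 without each library in turn. In RYGB versus BWM it was 1, 0 without the filter or the batch term, 2 with only the groups compared and with DESeq2, 3 in batch A alone, without the 6 libraries and with surrogate variables, 4 with limma-voom, and 0 to 2 without each library. In Lean versus sham it was 1, and 0 without the batch term (log2 fold change of Gstp1 -0.11), with only the groups compared, in batch A alone and with surrogate variables, and 0 or 1 without each library. The other 6 comparisons gave 0 in every alternative that could be fitted. Of the correlations of Nqo1, 2 were called over all libraries and 1 in each batch alone, but not the same one. In batch A it was Gsr (adjusted permutation p = 0.002, Srxn1 0.054). In batch B it was Srxn1 (adjusted permutation p = 0.0092, Gsr 0.364). Calls among all rows moved from 520 in RYGB versus sham to between 24 and 1576, from 212 in RYGB versus BWM to between 152 and 830, from 102 in Lean versus sham to between 1 and 180, from 7 in BWM versus sham to at most 29, and from 6 in the difference of effects to between 1 and 55. The 3 drug comparisons gave at most 20, 3 and 7. The counts of members are not set beside the share of all rows called in the same alternative. A higher count of members is therefore not a result particular to them. The causes of these shifts were not tested.

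The replicate numbers were not taken to pair the animals, since nothing in the labels says that they do. The correlation of residuals was computed for libraries of the same number, which cannot exclude a pairing. It was over 0.1 in 3 of 12 pairs of RYGB and sham, 3 of 8 of BWM and sham, 4 of 6 of Lean and sham (r from 0.0271 to 0.379, 4 best with their own number), 4 of 8 of the combination and saline, 0 of 4 of PYY3-36 and saline and 1 of 4 of liraglutide and saline. With the replicate number as a block, Mgst1 in RYGB versus sham had -0.35 (adjusted p = 0.131) and Gsta3 0.95 (adjusted p = 0.0274), so 1 member was called, and RYGB versus BWM gave 2 calls (Nqo1 0.98 and Gsta3 1.20). The lowest count in a library was 15 for Nqo1 and 4.5 for the other Gstm3 row, so counting error is larger for these members.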

Other observations

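The batch means of Mgst1 and Nqo1 are given by group, chosen after their values were seen. For batch A and batch B the mean of Mgst1 was 2713 and 3603 CPM in sham, 2344 and 4727 CPM under liraglutide+PYY3-36, 2659 and 3477 CPM in saline, and 2074 and 2157 CPM in RYGB, where batch B had 3 libraries. This difference between groups was not tested. Nqo1 had 7.76 CPM in batch A and 2.01 CPM in batch B of RYGB, 6.05 and 3.65 CPM in sham, 4.86 and 2.78 CPM under liraglutide+PYY3-36, and 4.27 and 2.14 CPM in saline.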
